A study of Mus musculus with 5 samples.

Results

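The genes that copy nuclear DNA and supply its nucleotides were examined in whole hearts of newborn mice with and without Charme, a muscle long noncoding RNA. The list held 47 genes chosen for the known role of their products. All 47 were found among the 49671 genes of the deposited count table, and all 47 passed the filter on low values (10 counts or more in 2 libraries or more), which left 14880 genes for the test. RNA sequencing of polyadenylated RNA had been carried out on 5 pools of hearts at postnatal day 2 (PN2) from C57BL6/J mice. The 3 CharmeWT pools carried the intact locus, and the 2 CharmeKO pools carried a polyadenylation signal inserted into Charme, with no other allele or treatment named for either group. Littermates of 1 genotype had been pooled before RNA extraction, with more hearts in each CharmeWT pool than in each CharmeKO pool, so a value is a mean over hearts, and a p-value measures the spread between these 5 pools only. An adjusted p is from edgeR's quasi-likelihood F test with Benjamini-Hochberg correction over the 14880 genes. A gene was called where that value was under 0.1 and its mean FPKM (fragments per kilobase of exon, scaled to a fixed number of fragments in the TMM-normalized library) was at least 1 in at least 1 genotype.

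Total counts ran from 16721055 to 21646378 a pool. Charme stood at 39.3, 10.4 and 14.0 CPM (counts scaled to a fixed library total) in the CharmeWT pools and at 4.04 and 3.54 CPM in the CharmeKO pools. Of the 6 cardiomyocyte genes that mark the tissue 6 were tested and 0 were called, with means from 9.51 FPKM (Ttn) to 4210 FPKM (Myl2) in CharmeWT and from 15.1 FPKM (Ttn) to 5263 FPKM (Myl2) in CharmeKO. The CharmeKO pools differed in these genes. Ttn was at 22.3 FPKM in CharmeKO pool 1 and 8.02 FPKM in CharmeKO pool 2, against 8.45 to 10.2 FPKM in CharmeWT. Myl2 was at 6584 and 3942 FPKM, against 3516 to 4719 FPKM in CharmeWT. Both CharmeKO pools lay below every CharmeWT pool for Myh6, at means of 2327 and 1478 FPKM (log2 fold change -0.65, edgeR adjusted p = 0.378), and for Actn2 (-0.29, edgeR adjusted p = 0.540). Myh6 was at 1092 FPKM in CharmeKO pool 1 and 1864 FPKM in CharmeKO pool 2. CharmeKO pool 1 stood apart in the counts of mitochondrially encoded genes, which took 21.1% of its counts against 9.68% to 11.1% in the other pools. CharmeKO pool 2 stood apart in salivary gland genes, at 2.55% of its counts against 0.0275% in CharmeKO pool 1 and near 0 in the CharmeWT pools, and the adipose list summed to 912 CPM there against 46.1 CPM in CharmeKO pool 1 and 0.17 to 5.44 CPM in the CharmeWT pools. Results are therefore given for each CharmeKO pool wherever the pools differ.

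Replication begins when the origin recognition complex, with Cdc6 and Cdt1, loads the MCM2-7 ring onto DNA, a step that geminin blocks by binding Cdt1. Cdc45 and the GINS complex then turn the ring into the moving helicase, polymerase alpha-primase lays down primers, polymerases delta and epsilon extend them on the sliding clamp PCNA, and RPA covers the bared strand. Ribonucleotide reductase, thymidylate synthase and thymidine kinase provide the deoxynucleotides that the fork consumes. Mouse cardiomyocytes still enter S phase in the first days after birth and then leave the cell cycle, while other cells of the heart go on dividing, and expression of many of these genes follows the fraction of cells in cycle. In a whole-organ library, fewer cells of a type and less RNA per cell cannot be told apart.

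Top2a, Rrm1 and Cdc45 rose in CharmeKO hearts, 3 of 47 genes, where 1.53% of all genes tested were called higher. In the other direction 0 of 47 were called by edgeR's quasi-likelihood test (0.524% of all genes), 0 by its likelihood ratio test (2.35%) and 0 by DESeq2 (3.21%). An unadjusted p under 0.05 was reached upward by 22 of 47, against 10.6% of all genes, and downward by 0 of 47, against 8.01%. The fitted log2 fold change was above 0 for 46 of 47 genes with TMM or RLE scaling and for 47 with upper-quartile scaling, against 51.8% of all genes with TMM, and its median was 0.52 over the 47 and 0.02 over all genes tested. The number above 0 was 43 without a count filter or with a length and GC correction, 44 with a replicate block or without CharmeWT pool 1 or pool 3, 40 with block and correction together, and 36 without CharmeKO pool 1. In 24 of 47 genes both CharmeKO pools lay above every CharmeWT pool, against 17.8% of all genes, and in 0 of 47 both lay below, against 18.2%. The likelihood ratio test called 11 of the 47 and DESeq2 called 13, with 3.92% and 4.33% of all genes called higher.

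**Figure D1:**
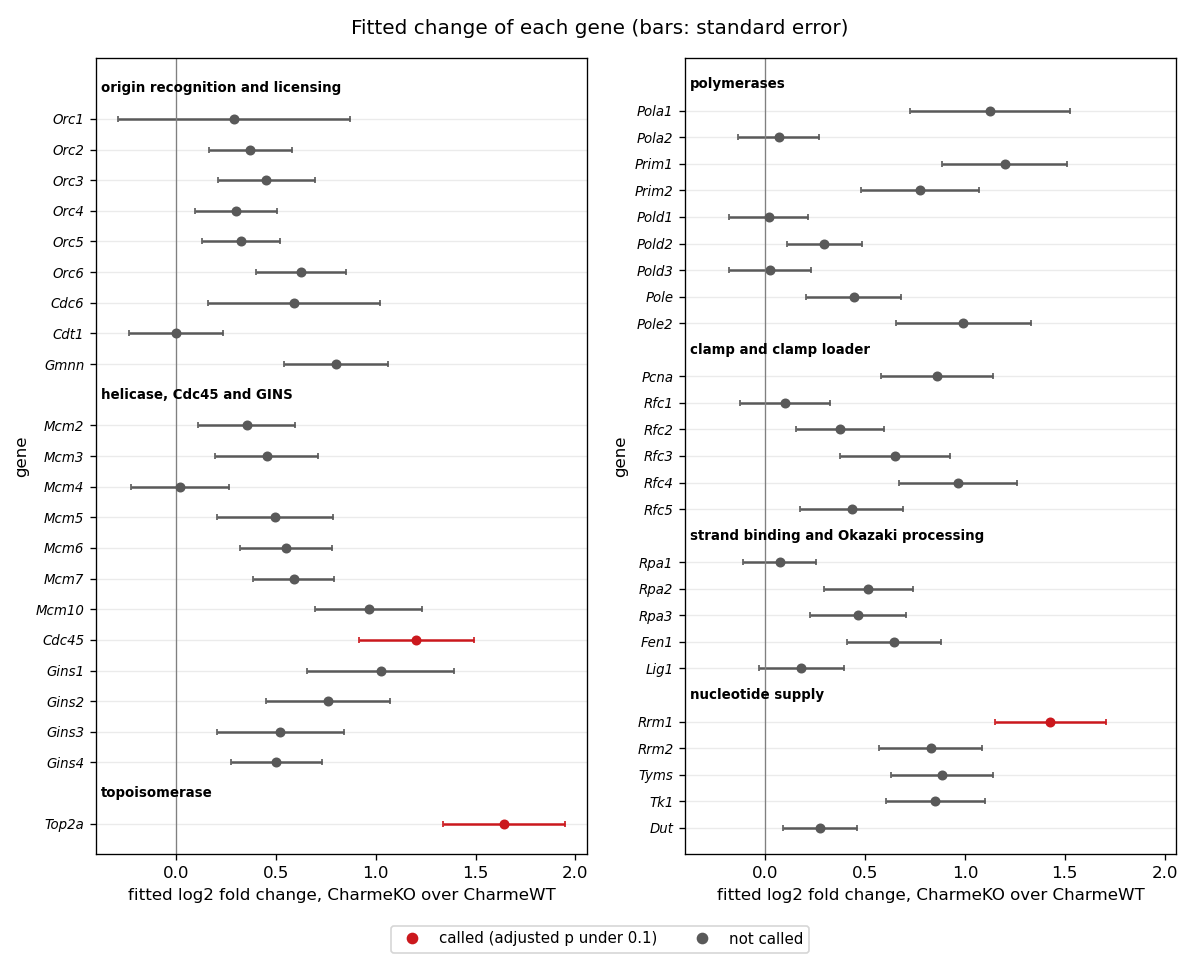
Fitted log2 fold change of CharmeKO (2 pools) over CharmeWT (3 pools) for each of the 47 genes, by group, with bars of 1 standard error and the 3 called genes in red. Top2a, Rrm1 and Cdc45 lie at 1.64, 1.43 and 1.20, and Cdt1, Mcm4, Pold1 and Pold3 lie between -0.002 and 0.02.

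The size of the difference depended on the CharmeKO pool. Relative to the mean log2 CPM of the CharmeWT pools, the median of the 47 genes was at 0.85 in CharmeKO pool 1 and at 0.20 in CharmeKO pool 2, and at -0.01, 0.16 and -0.16 in CharmeWT pools 1, 2 and 3. CharmeKO pool 1 was higher than CharmeKO pool 2 for 46 of 47 genes, the exception being Pold2, where 49.4% of all genes were higher in pool 1. CharmeKO pool 1 lay above every CharmeWT pool for 43 genes (39.1% of all genes) and CharmeKO pool 2 for 24 genes (30.4%). Among the CharmeWT pools, pool 2 was the highest for 34 genes and pool 3 the lowest for 31. With CharmeKO pool 1 left out, Top2a and Rrm1 were called (3.06% of all genes called higher and 1.27% lower) and the median was 0.20. With CharmeKO pool 2 left out, 34 of the 47 were called, against 16.1% of all genes called higher and 15.6% lower, and the median was 0.81. With CharmeWT pool 1 or CharmeWT pool 3 left out, none of the 3 genes kept its call (edgeR adjusted p from 0.17 to 0.445), and 0.00685% and 0.0% of all genes were called higher.

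**Figure D2:**
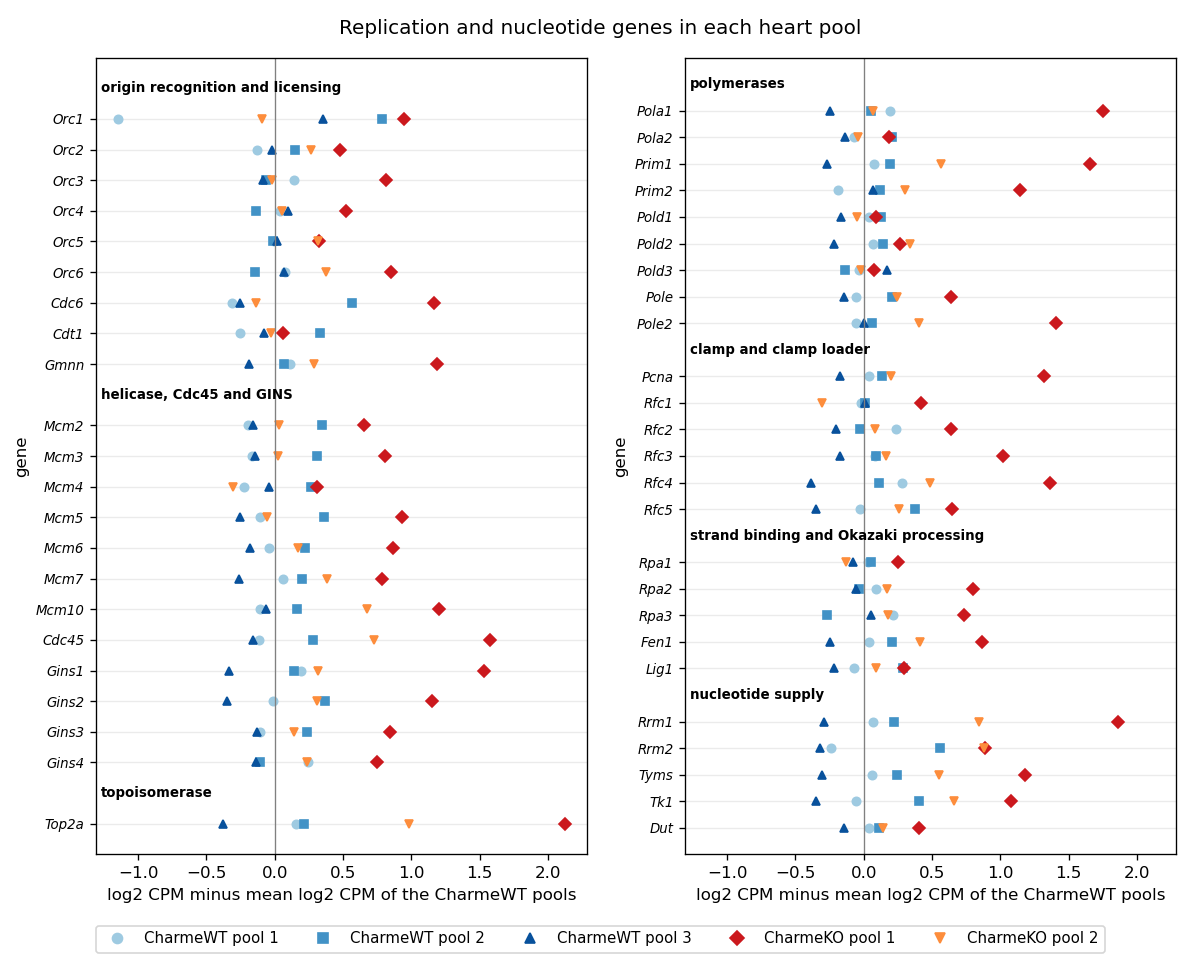
Level of each of the 47 genes in each pool, as log2 CPM minus the mean log2 CPM of the CharmeWT pools, 1 point a pool. CharmeKO pool 1 (red diamonds) lies above all CharmeWT pools for 43 genes and CharmeKO pool 2 (orange) for 24.

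CharmeKO pool 1 is also the pool with the high mitochondrial share. When mitochondrially encoded genes and the 8 listed salivary gland genes were removed before fitting, 14857 genes were tested. The same 3 genes were called, with log2 fold changes of 1.64 for Top2a, 1.42 for Rrm1 and 1.20 for Cdc45, where 1.57% of all genes were called higher. Other salivary gland genes, and those of adipose tissue and skeletal muscle, stayed in that fit. Removing genes also leaves the counts of the rest as they were. What other tissue or the mitochondrial share contributed was therefore not tested. Summed over each list, salivary, adipose and skeletal muscle genes were highest in CharmeKO pool 2, the pool in which 46 of 47 replication genes were the lower of the 2 CharmeKO values; the skeletal muscle list summed to 10.1 to 13 CPM in the CharmeWT pools, 28.5 CPM in CharmeKO pool 1 and 57.2 CPM in CharmeKO pool 2, although Tnni2 of that list was higher in CharmeKO pool 1 (7.52 FPKM) than in CharmeKO pool 2 (6.26 FPKM). Erythroid genes moved with the list in both CharmeKO pools. Of the 6 erythroid markers 5 were tested, and 4 lay higher in both CharmeKO pools than in every CharmeWT pool, against 17.8% of all genes. Hba-a1 was called higher, as were 1.53% of all genes. The 6 summed to 669 to 999.7 CPM in CharmeWT, 1812 CPM in CharmeKO pool 1 and 1241 CPM in CharmeKO pool 2. Epb42 had 0 to 7 counts in every pool. The summed endothelial and mural lists were lowest in CharmeKO pool 1, at 671 CPM for the endothelial list against 815 to 1066 CPM in CharmeWT and 864 CPM in CharmeKO pool 2, and at 155 CPM for the mural list against 248.7 to 269 CPM in CharmeWT and 230 CPM in CharmeKO pool 2. Pecam1 of the endothelial list was instead highest in CharmeKO pool 1, at 38.5 FPKM, and Tagln of the mural list was higher there (27.3 FPKM) than in CharmeWT pool 2 (25.4 FPKM). The fibroblast list summed to 3148 to 3613 CPM in CharmeWT, 2836 CPM in CharmeKO pool 1 and 4473 CPM in CharmeKO pool 2. Dcn and Pdgfra of that list were instead higher in CharmeKO pool 1 than in CharmeKO pool 2. The macrophage list summed to 67.6 to 104 CPM in CharmeWT and to 71.9 and 128 CPM in CharmeKO pools 1 and 2, with Adgre1 slightly higher in CharmeKO pool 1. The part of these cell types in the result was not tested. Thymocyte genes, from an organ that borders the heart and divides rapidly, were at or near 0: 2 of 8 were tested, and the list summed to 1.08 to 2.88 CPM in CharmeWT and to 0.99 and 2.15 CPM in CharmeKO.

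Promoter sequence was examined for the letters bound by E2F factors, the regulators to which S-phase genes are classically assigned. RefSeq windows from 250 bases before to 50 bases after the start (GRCm38.p6) were found for 39 of the 47 genes. An octamer TTTCCCGC, TTTGGCGC, TTTCGCGC or TTTGCCGC was present on either strand in 15 of the 39, against 2.60% of the 27025 genes with a window. The 6 windows below are from helicase and polymerase genes with a log2 fold change of 0.45 or more. They are shown because they place the same letters around the starts of genes of different complexes. Gins3, at 0.52 with GCGGGAAA at position -41, also meets these terms and is not printed. The capitals mark 1 octamer and lower case its surroundings.
Mcm3: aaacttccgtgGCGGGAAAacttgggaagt
Mcm5: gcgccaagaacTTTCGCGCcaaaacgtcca
Mcm6: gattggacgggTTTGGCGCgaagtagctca
Mcm7: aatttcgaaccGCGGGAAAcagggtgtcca
Pola1: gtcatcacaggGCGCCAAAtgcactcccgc
Pole2: cgtcggcggtgGCGCCAAAtcgcgaacatg
The next 3 are from genes whose log2 fold change was between -0.002 and 0.02, and they carry the same octamers.
Cdt1: ggaactaccttTTTGGCGCcatggcgcaa
Pold1: cgtatcttgtgGCGGGAAAagc
Pold3: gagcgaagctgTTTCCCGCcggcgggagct

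The first base of the octamer lies at position 20 from the RefSeq start in Mcm3 (chr1:20820275-20820304, minus strand), -153 in Mcm5 (chr8:75109345-75109374, plus strand), -47 in Mcm6 (chr1:128359734-128359763, minus strand) and -165 in Mcm7 (chr5:138172030-138172059, minus strand). It lies at -138 in Pola1 (chrX:93632275-93632304, minus strand), 11 in Pole2 (chr12:69228162-69228191, minus strand), 33 in Cdt1 (chr8:122568036-122568064, plus strand), 40 in Pold1 (chr7:44548766-44548787, minus strand) and 18 in Pold3 (chr7:100121467-100121496, minus strand). Position 1 is the first transcribed base, position -1 the base before it, and all windows are written on the strand of the gene. In Mcm5 the match overlaps another, GCGCCAAA at position -149, and Mcm3, Mcm6 and Mcm7 hold further matches that are not printed. Median log2 fold changes were 0.49 for the 15 genes with an octamer and 0.57 for the 24 without a match, so the match did not separate higher from lower fold changes. These are matches of letters in a window, and binding was not measured.

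None of the windows of Top2a, Rrm1 and Cdc45 held an E2F octamer. All 3 held the CCAAT pentamer, the letters bound by NF-Y, which 24 of the 39 members and 41.1% of all genes hold on either strand. The hexamers TTTGAA and TTCGAA, the letters of the cell cycle genes homology region (CHR) of G2/M promoters, were found in 8 of the 39 and in 21.7% of all genes, Top2a and Cdc45 among them. The stretches below show 1 CCAAT match (capitals) of each called gene and 1 CHR match of Top2a and of Cdc45.
Top2a, CCAAT at -78: ctgcaaacagagCCAATgagagcgagtcg
Top2a, CHR at -23: gctagataaaggTTCAAAtgaaactaggga
Rrm1, CCAAT at -45: gtccgctttcacCCAATgtggtggaaagg
Cdc45, CCAAT at -13: gacgaaccgtgtATTGGaaacttattgga
Cdc45, CHR at 11: attggaaacacaTTCAAAtaatgtgtgact
The Top2a stretches are at chr11:99024251-99024279 and chr11:99024195-99024224 (minus strand), that of Rrm1 at chr7:102441638-102441666 (plus strand), and those of Cdc45 at chr16:18811969-18811997 and chr16:18811945-18811974 (minus strand). ATTGG and TTCAAA are CCAAT and TTTGAA read on the opposite strand. Median log2 fold changes with and without a match were 0.54 and 0.43 for CCAAT, and 0.62 and 0.46 for CHR. The fold changes overlapped, at 0.30 to 1.64 with a CHR match and -0.002 to 1.43 without. For CCAAT they ran from 0.07 to 1.64 with a match and from -0.002 to 0.99 without. Neither difference was tested, and binding was not measured.

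Top2a encodes topoisomerase II alpha, which untangles the daughter duplexes behind the fork and condenses chromosomes at mitosis, and it had the largest fold change of the 47. Its level was 11.3, 11.8 and 7.79 FPKM in CharmeWT pools 1, 2 and 3 and 44.1 and 20.0 FPKM in CharmeKO pools 1 and 2. Both CharmeKO pools were above all CharmeWT pools, pool 1 by more than pool 2. Means were 10.3 ± 2.18 FPKM in CharmeWT (SD, n = 3) and 32.1 ± 17.0 FPKM in CharmeKO (SD, n = 2), and the gene rose by a log2 fold change of 1.64 (SE 0.306, edgeR adjusted p = 0.0488). Top2a was the only 1 of the 47 with an adjusted p under 0.05, and it had a log2 fold change of 0.96 without CharmeKO pool 1 and 2.09 without CharmeKO pool 2.

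Of the groups of more than 1 gene, nucleotide supply was the group in which CharmeKO pool 2 lay furthest above the CharmeWT pools. All 5 of its genes lay higher in both CharmeKO pools than in every CharmeWT pool, against 17.8% of all genes. An unadjusted p under 0.05 was reached upward by 4 of 5, against 10.6% of all genes. The median of the group was at 1.08 in CharmeKO pool 1 and 0.66 in CharmeKO pool 2 on the log2 scale, against -0.30 to 0.24 in the CharmeWT pools. Its median fitted log2 fold change was 0.85, also the highest of these groups. Quasi-likelihood called 1 of the 5 (1.53% of all genes called higher), and the likelihood ratio test and DESeq2 called 4 each (3.92% and 4.33%). That order of groups is a description of medians and was not tested.

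Rrm1, the large subunit of ribonucleotide reductase, was at 7.66, 8.50 and 5.98 FPKM in CharmeWT and at 26.6 and 13.1 FPKM in CharmeKO. The groups did not overlap, and means of 7.38 ± 1.29 FPKM in CharmeWT (SD, n = 3) and 19.9 ± 9.52 FPKM in CharmeKO (SD, n = 2) gave a log2 fold change of 1.43 (SE 0.278, edgeR adjusted p = 0.0525). Rrm2, the small subunit that limits the enzyme to S phase, was at 15.8, 27.3 and 14.9 FPKM in CharmeWT and at 34.4 and 34.2 FPKM in CharmeKO. The 2 CharmeKO pools were nearly equal and CharmeWT pool 2 lay closest to them. Rrm2 had a log2 fold change of 0.83 (SE 0.256, edgeR adjusted p = 0.158) and was called with CharmeWT pool 2 left out. The ratio of Rrm1 to Rrm2 in FPKM was 0.486, 0.311 and 0.401 in CharmeWT and 0.773 and 0.385 in CharmeKO, inside the CharmeWT range in CharmeKO pool 2 and above it in pool 1.

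Tyms, thymidylate synthase, was at 2.50, 2.84 and 1.94 FPKM in CharmeWT and at 5.46 and 3.51 FPKM in CharmeKO. Tk1, the S-phase thymidine kinase, was at 5.01, 6.90 and 4.07 FPKM against 11 and 8.25 FPKM. Neither passed the test, with log2 fold changes of 0.88 (SE 0.257) and 0.85 (SE 0.247) and an edgeR adjusted p of 0.146 for both. Dut, the dUTPase that keeps uracil out of DNA, had the smallest difference of the group, with 14.8 to 17.6 FPKM in CharmeWT, 21.6 and 18.1 FPKM in CharmeKO and a log2 fold change of 0.27 (SE 0.186, edgeR adjusted p = 0.442).

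In the helicase group 1 of 12 genes was called higher and 6 had an unadjusted p under 0.05 upward, against 1.53% and 10.6% of all genes. In 4 of the 12 both CharmeKO pools lay above every CharmeWT pool, against 17.8% of all genes. The median of the group was 0.86 in CharmeKO pool 1 and 0.20 in CharmeKO pool 2, the latter within the CharmeWT range of -0.16 to 0.25. Cdc45, which joins MCM2-7 and GINS into the active helicase, was at 2.42, 3.20 and 2.35 FPKM in CharmeWT and at 7.90 and 4.39 FPKM in CharmeKO. The groups did not overlap, and Cdc45 rose with a log2 fold change of 1.20, from 2.66 ± 0.468 FPKM in CharmeWT (SD, n = 3) to 6.14 ± 2.49 FPKM in CharmeKO (SD, n = 2; SE 0.288 on the log2 scale, edgeR adjusted p = 0.0955). That call sat close to the threshold: the legacy and the robust forms of the quasi-likelihood test both gave an adjusted p of 0.102. Mcm10, which helps to activate the loaded ring, was next among the genes outside GINS, at 0.688, 0.832 and 0.710 FPKM in CharmeWT and 1.72 and 1.19 FPKM in CharmeKO (log2 fold change 0.97, SE 0.268, edgeR adjusted p = 0.136).

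The 6 subunits of the MCM2-7 ring, which are needed in equal number, lay between 6.80 (Mcm2) and 12.6 FPKM (Mcm7) in the CharmeWT mean, a range of 1.86-fold, and their log2 fold changes ran from 0.02 to 0.59. Mcm7 was at 13, 14.4 and 10.5 FPKM in CharmeWT and 21.6 and 16.4 FPKM in CharmeKO, and was the 1 subunit whose CharmeKO pools both lay above the CharmeWT pools (log2 fold change 0.59, SE 0.204, edgeR adjusted p = 0.192). Mcm4 was at 6.45, 9.08 and 7.36 FPKM against 9.38 and 6.12 FPKM, and its CharmeKO pools held the highest and the lowest of the 5 values (log2 fold change 0.02, SE 0.244, edgeR adjusted p = 0.975). Mcm2, Mcm3, Mcm5 and Mcm6 lay between them, at 0.35, 0.45, 0.49 and 0.55, and for each of these CharmeKO pool 2 was within the CharmeWT range. The ratio of Mcm7 to Mcm4 does not depend on how the libraries are scaled, and was 2.02, 1.58 and 1.42 in CharmeWT and 2.30 and 2.67 in CharmeKO. Both CharmeKO pools were above all CharmeWT pools, although with 3 pools against 2 an exact permutation test of any such ratio cannot give a p under 0.1, and the pairs of genes set against each other here were chosen after their values were seen.

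The 4 GINS subunits, which form a complex of equal parts, spanned a wider range of levels, from 1.46 (Gins3) to 15.7 FPKM (Gins4) in the CharmeWT mean, a range of 10.8-fold. Gins1 had the largest difference, at 3.78, 3.66 and 2.60 FPKM in CharmeWT and 9.67 and 4.14 FPKM in CharmeKO (log2 fold change 1.03, SE 0.368, edgeR adjusted p = 0.199). Gins4, the most abundant gene of the helicase group, was at 18.5, 14.5 and 14.2 FPKM against 26.3 and 18.4 FPKM, with CharmeKO pool 2 inside the CharmeWT range (log2 fold change 0.50, SE 0.229, edgeR adjusted p = 0.276). Gins2 and Gins3 had log2 fold changes of 0.76 and 0.52, and in both CharmeKO pool 2 lay below the highest CharmeWT pool. Exons of Gins2 are overlapped over 67.3% of their length by Gse1 on the opposite strand, which a stranded count keeps apart.

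**Figure D3:**
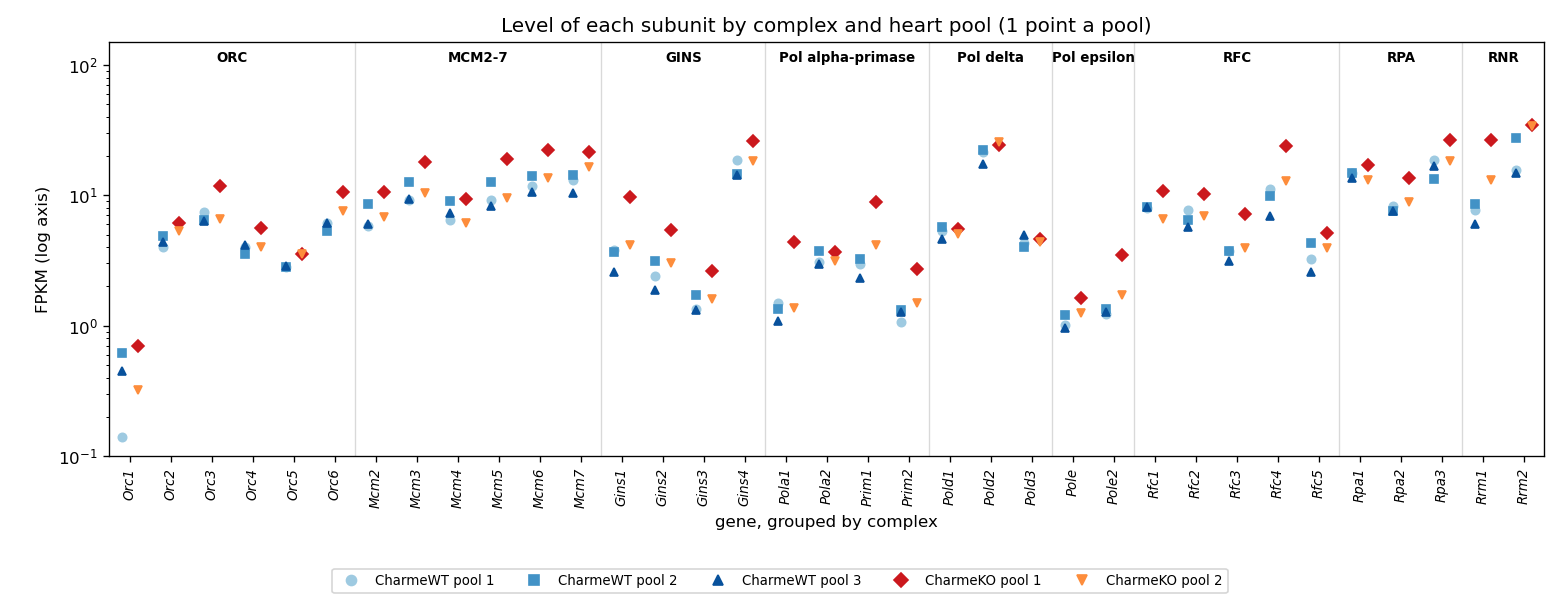
Level of each subunit in FPKM (log axis) by complex, 1 point a pool, with CharmeWT in blue and CharmeKO in red and orange; RNR is ribonucleotide reductase. The MCM2-7 subunits lie within a 1.86-fold range in CharmeWT and the GINS subunits within 10.8-fold. In the polymerase alpha-primase complex Pola1 and Pola2 overlap between genotypes while Prim1 and Prim2 do not.

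Origin recognition and licensing genes had the lowest median log2 fold change of the groups, 0.37. In CharmeKO pool 1 the median of the 9 genes was 0.82, and in CharmeKO pool 2 it was 0.05, within the CharmeWT values of -0.02 to 0.07. By quasi-likelihood 0 of 9 were called higher and 2 had an unadjusted p under 0.05 upward, against 1.53% and 10.6% of all genes. The likelihood ratio test and DESeq2 called 1 each, which was Gmnn, with 3.92% and 4.33% of all genes called higher. The 6 ORC subunits ran from 0.403 (Orc1) to 6.72 FPKM (Orc3) in the CharmeWT mean. Their log2 fold changes ran from 0.29 for Orc1, whose 10 to 38 counts a pool gave the largest standard error of the 47 (0.581), to 0.63 for Orc6 (SE 0.226, edgeR adjusted p = 0.201). Orc5 was at 2.84, 2.82 and 2.89 FPKM in CharmeWT and at 3.57 and 3.56 FPKM in CharmeKO, the tightest agreement between pools of any ORC gene, and its log2 fold change of 0.32 (SE 0.195) had an adjusted p of 0.390.

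The licensing factor Cdt1 and its inhibitor geminin lay at opposite ends of the group. Gmnn, geminin, the most abundant gene of the group, was at 19.2, 18.7 and 15.6 FPKM in CharmeWT and at 40.5 and 21.7 FPKM in CharmeKO, so both CharmeKO pools lay above the CharmeWT pools (log2 fold change 0.80, SE 0.260, edgeR adjusted p = 0.173). Cdt1, the factor that geminin inhibits, was at 4.79, 7.23 and 5.44 FPKM in CharmeWT and at 6.0 and 5.62 FPKM in CharmeKO, with both CharmeKO pools inside the CharmeWT range (log2 fold change -0.002, SE 0.236, edgeR adjusted p = 0.998). The ratio of Gmnn to Cdt1 was 4.01, 2.58 and 2.87 in CharmeWT and 6.75 and 3.86 in CharmeKO, and CharmeWT pool 1 lay above CharmeKO pool 2. Cdc6, the other loading factor, was at 0.604, 1.13 and 0.629 FPKM in CharmeWT and 1.72 and 0.686 FPKM in CharmeKO, and overlapped.

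Among the 9 polymerase genes 0 were called higher by quasi-likelihood and 4 had an unadjusted p under 0.05 upward, against 1.53% and 10.6% of all genes. The likelihood ratio test called 1 (Prim1) and DESeq2 called 2 (Prim1 and Pola1), with 3.92% and 4.33% of all genes called higher. In polymerase alpha-primase, which starts each strand, Prim1 (primase small subunit) was at 2.96, 3.22 and 2.33 FPKM in CharmeWT and 8.92 and 4.18 FPKM in CharmeKO, with no overlap (log2 fold change 1.20, SE 0.313, edgeR adjusted p = 0.118). Pola1, the catalytic subunit, was at 1.48, 1.35 and 1.09 FPKM against 4.39 and 1.36 FPKM, so its log2 fold change of 1.12 (SE 0.402, edgeR adjusted p = 0.198) rested on CharmeKO pool 1 and was 0.06 without it. Pola2, the accessory subunit, was at 3.08, 3.73 and 2.95 FPKM against 3.68 and 3.14 FPKM, at a log2 fold change of 0.07 (SE 0.203, edgeR adjusted p = 0.880). Prim2 was at 1.06, 1.32 and 1.27 FPKM against 2.70 and 1.49 FPKM, with no overlap (log2 fold change 0.77, SE 0.295, edgeR adjusted p = 0.217). The ratio of Prim1 to Pola2 was 0.962, 0.862 and 0.790 in CharmeWT and 2.42 and 1.33 in CharmeKO, and did not overlap. Prim2 to Pola2 did not overlap either, at 0.345 to 0.431 in CharmeWT and 0.732 and 0.476 in CharmeKO. Pola1 to Pola2 overlapped, at 0.361 to 0.481 in CharmeWT and 1.19 and 0.432 in CharmeKO.

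Polymerase delta, the lagging-strand enzyme, had the smallest differences. Its catalytic subunit Pold1 was at 5.36, 5.67 and 4.64 FPKM in CharmeWT and 5.56 and 5.02 FPKM in CharmeKO, wholly overlapping (log2 fold change 0.02, SE 0.197, edgeR adjusted p = 0.972). Pold3 had a log2 fold change of 0.02 (SE 0.205). Pold2, the most abundant polymerase gene, was at 21.3, 22.4 and 17.5 FPKM against 24.4 and 25.7 FPKM, and was the only 1 of the 47 with a higher value in CharmeKO pool 2 (log2 fold change 0.30, SE 0.187, edgeR adjusted p = 0.411). In polymerase epsilon, the leading-strand enzyme, the accessory subunit Pole2 was at 1.23, 1.34 and 1.28 FPKM against 3.47 and 1.71 FPKM (log2 fold change 0.99, SE 0.338, edgeR adjusted p = 0.187), and the catalytic subunit Pole was at 0.952 to 1.22 FPKM against 1.64 and 1.25 FPKM (log2 fold change 0.44, SE 0.238). The ratio of Pole2 to Pole was 1.10 to 1.35 in CharmeWT and 2.11 and 1.37 in CharmeKO.

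Of the clamp and its loader 0 of 6 were called higher by quasi-likelihood and 3 had an unadjusted p under 0.05 upward, against 1.53% and 10.6% of all genes. The likelihood ratio test and DESeq2 called 2 each, Pcna and Rfc4, with 3.92% and 4.33% of all genes called higher. Pcna, the sliding clamp and the most abundant of the 47 genes, was at 31.0, 33.2 and 26.9 FPKM in CharmeWT and at 75.7 and 34.8 FPKM in CharmeKO. Both CharmeKO pools were above the CharmeWT pools, pool 2 only just, and the log2 fold change was 0.86 (SE 0.282, edgeR adjusted p = 0.175). Rfc4, a small subunit of the RFC clamp loader, was at 11.1, 9.90 and 7.0 FPKM against 23.7 and 12.9 FPKM (log2 fold change 0.96, SE 0.296, edgeR adjusted p = 0.158). Rfc1, the large subunit, was at 7.99, 8.16 and 8.15 FPKM in CharmeWT, close to equal, and at 10.8 and 6.54 FPKM in CharmeKO, to either side of them (log2 fold change 0.10, SE 0.224, edgeR adjusted p = 0.835). The ratio of Rfc4 to Rfc1 was 1.39, 1.21 and 0.858 in CharmeWT and 2.19 and 1.97 in CharmeKO, with both CharmeKO pools above all CharmeWT pools. Rfc2, Rfc3 and Rfc5 had log2 fold changes of 0.37, 0.65 and 0.43.

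Of the genes that bind the bared strand and finish Okazaki fragments 0 of 5 were called by any of the 3 tests. Quasi-likelihood, the likelihood ratio test and DESeq2 called 1.53%, 3.92% and 4.33% of all genes higher. An unadjusted p under 0.05 was reached upward by 2 of the 5, against 10.6% of all genes. Rpa3, the smallest RPA subunit and the most abundant of the group, was at 18.6, 13.4 and 16.7 FPKM in CharmeWT and 26.8 and 18.2 FPKM in CharmeKO (log2 fold change 0.46, SE 0.242, edgeR adjusted p = 0.330), and its log2 fold change was -0.32 with the length and GC correction. Rpa1, the large subunit, was at 14.7, 14.9 and 13.6 FPKM against 17.1 and 13.2 FPKM, to either side of the CharmeWT pools (log2 fold change 0.07, SE 0.181, edgeR adjusted p = 0.855). Rpa2 was at 0.52, and its ratio to Rpa1 was 0.511 to 0.566 in CharmeWT and 0.795 and 0.669 in CharmeKO. Fen1, the flap endonuclease, was at 6.76, 7.62 and 5.53 FPKM against 12 and 8.77 FPKM (log2 fold change 0.64, SE 0.233, edgeR adjusted p = 0.201); the antisense gene Gm10143 overlaps 78.8% of its exons. Lig1, the ligase that seals the nick after it, was at 5.84 to 8.33 FPKM against 8.35 and 7.27 FPKM (log2 fold change 0.18, SE 0.212).

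**Figure D4:**
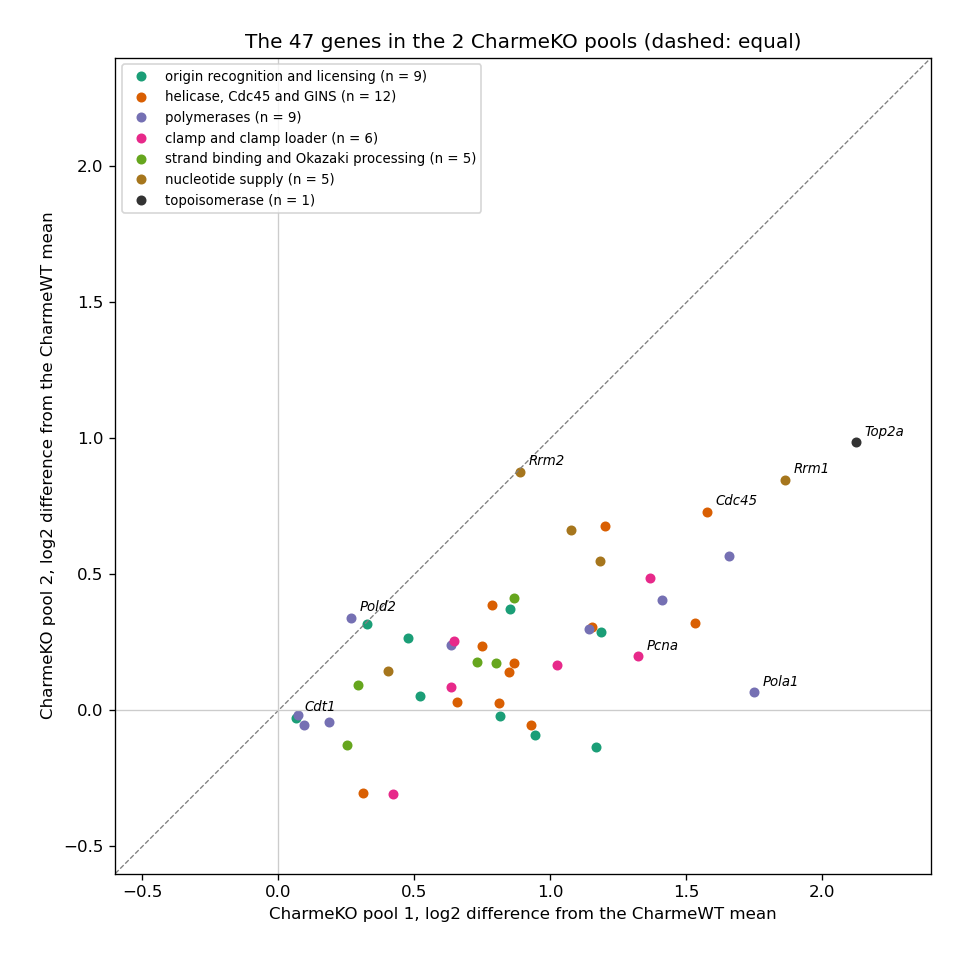
Each of the 47 genes by its log2 difference from the CharmeWT mean in CharmeKO pool 1 (x axis) and CharmeKO pool 2 (y axis), coloured by group, with the line of equal values dashed. Only Pold2 lies above the line, Rrm2 lies beside it, and Pola1 is high in pool 1 and near 0 in pool 2.

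Genes around this machinery were counted in 6 further lists, beside 1.53% of all genes called higher and 0.524% called lower. Of 13 genes of origin firing and the replication checkpoint, Dbf4, the activator of the Cdc7 kinase that fires origins, was called higher at 1.49, 1.80 and 1.30 FPKM in CharmeWT and 4.20 and 2.74 FPKM in CharmeKO (log2 fold change 1.18, SE 0.247, edgeR adjusted p = 0.0671), 0 were called lower, and the median was 0.65. Of 20 other fork genes, 2 were called higher and 0 lower, with a median of 0.41. They were Asf1b, a histone chaperone, at 4.69 to 6.32 FPKM against 13.9 and 11.7 FPKM (log2 fold change 1.16, SE 0.220, edgeR adjusted p = 0.0497), and Pclaf, a PCNA-binding protein, at 2.68 to 3.79 FPKM against 14.4 and 4.91 FPKM (log2 fold change 1.55, SE 0.373, edgeR adjusted p = 0.0961).

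Of 27 other nucleotide synthesis genes, which cover purine and pyrimidine synthesis, folate use and salvage, 0 were called in either direction and the median was 0.10. The likelihood ratio test and DESeq2 called 1 each (Nme1), with 3.92% and 4.33% of all genes called higher. Of the 27, 4 had an unadjusted p under 0.05 upward and 0 downward, against 10.6% and 8.01% of all genes. Paics, a purine synthesis enzyme and the most abundant of them, was at 57.6 to 73.5 FPKM in CharmeWT and 127 and 74.4 FPKM in CharmeKO (log2 fold change 0.64, SE 0.235, edgeR adjusted p = 0.205). Of 9 genes that copy the mitochondrial genome 0 were called and the median was -0.07. An unadjusted p under 0.05 was reached upward by 0 of the 9 and downward by 1, where 8.01% of all genes reached it downward. The downward 1 was Polg, the mitochondrial DNA polymerase, at -0.55 (SE 0.175, edgeR adjusted p = 0.167). DESeq2 called Polg lower, as it did 3.21% of all genes. Of 13 genes of the E2F and Rb families 0 were called by any of the 3 tests and the median was 0.15. Of the 13, 0 had an unadjusted p under 0.05 upward and 1 downward, against 10.6% and 8.01% of all genes. E2f4, the most abundant of these, was at 14.7 to 17.1 FPKM in CharmeWT and at 10.3 and 17.6 FPKM in CharmeKO.

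Mitotic genes were set beside the replication genes because both are expressed in cycling cells. Of 15, 11 were called higher and 0 lower, against 1.53% and 0.524% of all genes. All 15 lay higher in both CharmeKO pools than in every CharmeWT pool, against 17.8% of all genes. Their median log2 fold change was 1.57, against 0.52 for the 47, and the median was 1.93 in CharmeKO pool 1 and 1.27 in CharmeKO pool 2. Cdc20, the most abundant, was at 15.3 to 25.6 FPKM in CharmeWT and 26.9 and 48.2 FPKM in CharmeKO, and was not called (adjusted p = 0.150), and the called genes ran from 1.24 for Ube2c to 2.04 for Cenpf. Top2a, at 1.64, and Rrm1, at 1.43, lay within that range, and Cdc45, the next highest of the 47, was below it at 1.20. These lists were written with earlier results of the same libraries known, so their counts are a description, and the difference between the lists was not tested.

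**Figure D5:**
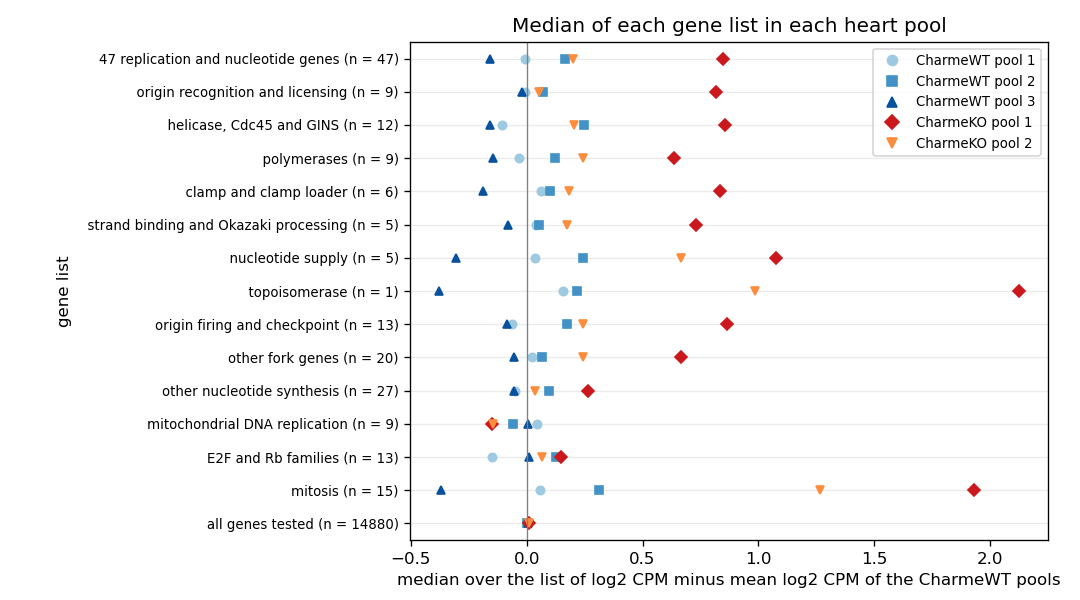
Median over each gene list of log2 CPM minus the mean of the CharmeWT pools, 1 point a pool, with the number of genes tested in each list. The mitotic list is at 1.93 and 1.27 in the CharmeKO pools, the 47 replication and nucleotide genes at 0.85 and 0.20, and the median of all genes tested near 0 in every pool.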

How the data were processed

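Hearts at PN2 had been pooled by genotype, and polyadenylated RNA was sequenced from stranded libraries. Per the labels and the study's methods, the authors trimmed the reads, aligned them to mm10 (GRCm38) with STAR and deposited raw counts of fragments per Ensembl gene from its reverse-stranded output; the STAR version is not given in the sources used here. The deposited FPKM table was not used, and FPKM was computed from the counts with GENCODE M21 exon lengths and TMM-scaled libraries. The 14880 of 49671 genes that reached 10 counts in 2 or more pools were tested with edgeR 4.0.16 in R 4.3.3 (quasi-likelihood F test, newer form, genotype only). SE is the log2 fold change divided by the square root of F. Pool values on the log2 scale used a prior count of 2. The test was checked on simulated counts. Alternatives were the likelihood ratio test, DESeq2 1.42.0, other quasi-likelihood forms, scalings, filters and thresholds, a replicate block, a length and GC correction, and leaving out each pool. The members and lists were chosen with earlier results of these data known. Full statistics are given for called members and, per group, for the most abundant member and those with the highest and lowest fold change; other lists' genes are named where called or most abundant. Each of the 5 libraries is 1 pool.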

Additional observations from a re-analysis of the deposited data

How the results depend on the processing

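The number of replication and nucleotide genes called higher was 3, where 1.53% of all genes were called higher. It was 11 with the likelihood ratio test (3.92% of all genes) and 13 with DESeq2 (4.33%). At an adjusted p under 0.05 it was 1 (0.652%). With the replicate block together with the length and GC correction it was 0 (0.195%). It ran from 0 to 34 with 1 pool left out: 0 without CharmeWT pool 1 or CharmeWT pool 3, where 0.00685% and 0.0% of all genes were called higher, 3 without CharmeWT pool 2, 2 without CharmeKO pool 1 and 34 without CharmeKO pool 2, where the lone CharmeKO pool is assumed to vary like the CharmeWT pools. Without CharmeWT pool 2, 1.02% of all genes were called higher. None of the 47 was called lower in any setting. The median of the 47 was 0.52 and ran from 0.20 to 0.81 with 1 pool left out. The same range was 0.049 to 0.80 for origin genes, 0.20 to 0.85 for the helicase group, 0.24 to 0.63 for polymerases, 0.18 to 0.82 for the clamp and loader, 0.16 to 0.71 for strand binding and 0.64 to 1.08 for nucleotide supply, each lowest without CharmeKO pool 1 and highest without CharmeKO pool 2, except that nucleotide supply was highest without CharmeWT pool 2. The strand binding median was 0.21 with the block and the correction together, and the origin median was 0.13 with the length and GC correction alone. The cause was not tested.

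Replicate numbers are shared by the genotypes, but same-numbered pools deviated together only weakly (r = 0.137 for number 1 and 0.0778 for number 2, across genes), and with 2 pairs the numbers are not shown to pair the pools. Deviations were taken from the mean of each genotype, so those of CharmeKO pool 2 are those of CharmeKO pool 1 with the sign reversed. The 2 values of r are therefore not separate measures of pairing. With the replicate block 2 genes were called, Top2a and Rrm1, where 1.01% of all genes were called higher, and the median was 0.44.

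Of 893 values of single genes under the alternatives 36 changed sign, in 14 genes whose difference was not called. Cdt1 went from -0.002 to 0.029 with upper-quartile scaling, 0.19 with the length and GC correction and 0.15 with block and correction. Mcm4 went from 0.018 to -0.014 without a count filter, -0.017 with the block, -0.21 with the correction and -0.23 with both. Without a count filter Pold1 was at -0.014 and Pold3 at -0.0099, and with the block Pold1 was at -0.063. With the correction Orc4 was at -0.10, Orc5 at -0.032 and Rpa3 at -0.32; with block and correction Orc3 was at -0.055, Orc4 at -0.13, Orc5 at -0.093, Pola2 at -0.032, Rfc1 at -0.029 and Rpa3 at -0.31. With 1 pool left out the values ran from -0.29 to 0.80 for Orc1, -0.023 to 0.81 for Orc3, -0.18 to 1.14 for Cdc6, -0.12 to 0.18 for Cdt1, -0.31 to 0.29 for Mcm4, -0.075 to 0.90 for Mcm5, -0.048 to 0.18 for Pola2, -0.061 to 0.082 for Pold1, -0.045 to 0.11 for Pold3, -0.31 to 0.41 for Rfc1 and -0.13 to 0.24 for Rpa1.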
